A study of Mus musculus with 24 samples.

Results

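Genes of fatty acid oxidation and of the PPAR receptors were followed in mouse bone marrow-derived macrophages. The list holds 34 genes chosen by name for their role: 3 PPAR receptors, 4 acyl-CoA synthetases, 3 proteins of the carnitine shuttle, 16 enzymes of the oxidation spiral and its side steps in mitochondria and peroxisomes, 2 thioesterases, 3 other PPAR targets and 3 proteins of electron transfer. All 34 matched an identifier of the expression table of 54532 genes, and 30 of them were kept for testing, among 11377 genes kept in all. Kept genes had 4 or more of the 24 libraries at an FPKM of 1 or above. FPKM is the number of fragments on a gene divided by its exon length and by the depth of the library. All annotated exons count towards that length, so levels can be compared between genes only roughly. The list itself rests on names and roles and was chosen with earlier results of these data known, while the filter uses measured FPKM.

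Fatty acids are first joined to coenzyme A by acyl-CoA synthetases and then carried into mitochondria by the carnitine shuttle, whose first enzyme, Cpt1a, sets the pace of oxidation. Inside, each turn of the spiral runs through a dehydrogenase, a hydratase, a second dehydrogenase and a thiolase that releases acetyl-CoA, and the electrons of the first step reach the respiratory chain through the electron transfer flavoprotein. PPARs are nuclear receptors activated by fatty acids. They pair with RXR on DNA and switch on genes of fatty acid handling, and in macrophages Pparg and Ppard are known for lipid handling and alternative activation.

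The macrophages were primary cells from C57BL/6 mice, either wild type (WT) or Trem2(-/-) (KO), differentiated over 7 days with the help of medium from the L929 fibroblast line, a source of macrophage growth factor. Trem2 is a lipid-sensing receptor of macrophages, and the labels do not describe how its gene was disrupted. Cells of each genotype were untreated, received 500 nM of the signalling lipid sphingosine-1-phosphate (S1P) for 24 hours, or received ACM for 24 hours. ACM is serum-free medium from AML12 cells, a mouse hepatocyte line, collected after these cells had been made apoptotic with 800 µM palmitic acid, itself a fuel of fatty acid oxidation. Each of the 6 groups had 4 libraries. What medium or vehicle the untreated cells received is not stated in the labels, and none of the 6 groups received medium from healthy AML12 cells or palmitic acid by itself.

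The depth that the FPKM values were divided by was 16600000 to 25200000 reads, recovered from the deposited values and rounded. Reads summed over genes came to more than this depth in each library, and whether reads were counted in more than 1 gene was not tested. Each library had 10579 to 10892 genes at or above an FPKM of 1. All 9 macrophage markers were present, with a summed FPKM of 8350 to 8530 in WT untreated, 6820 to 7570 in WT ACM, 4750 to 6630 in WT S1P and 5090 to 7090 in KO libraries. Lyz2 was the largest part of these sums, with a mean of 5790 in WT untreated and 3280 in WT S1P cells. The sum of 7090 was in the library labelled KO untreated 81, and KO ACM and KO S1P libraries reached 5620 at most. Of 9 hepatocyte markers 1 reached an FPKM of 1 and 3 were at 0 in every library (summed FPKM 0.794 to 1.9), and 7 fibroblast markers summed to 0.0855 at most. Granulocyte markers, 2 of 7 of which reached an FPKM of 1, summed to 2.52 to 4.13 in WT and 4.2 to 10.8 in KO libraries, dendritic cell markers (0 of 6) to 0.914 at most and adipocyte markers (1 of 6) to 2.13 to 3.1. The granulocyte sum of 4.2 was in the library labelled KO untreated 81, and KO ACM and KO S1P libraries lay at 8.86 to 10.8. The part of these markers in the differences reported was not tested. Trem2 itself had an FPKM of 74.5 to 82.7 in WT untreated and 36.8 to 40.5 in KO ACM cells, but 79.6 in the library labelled KO untreated 81, against 40.2, 35.7 and 38.9 in the 3 other KO untreated libraries. That library is therefore shown apart, and results that rest on it are given with and without it. The labels name no animal, culture or batch, so p-values rest on the spread of libraries alone, and that spread may be technical. Every WT library has a lower number than every KO library, so genotype and any order of library preparation cannot be told apart, and the same holds for treatment within a genotype.

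Between members, levels in WT untreated cells spanned a wide range. Ucp2, an uncoupling protein of the inner mitochondrial membrane, was the highest at an FPKM of 64.3 ± 3.22 (SD, n = 4), and Acadl, the long-chain acyl-CoA dehydrogenase, was next at 60.2 ± 1.16; these neighbours overlapped, with libraries at 59.6 to 66.8 and 59.4 to 61.9. Acsl4 (41.4 ± 2.66), Etfa (37.4 ± 2.49), Acsl5 (35.6 ± 1) and Hsd17b4 (32.7 ± 0.824) followed. Among the kept members the lowest were Ppard (2.36 ± 0.092), Ehhadh (2.51 ± 0.438), Acot2 (3.13 ± 0.229) and Pparg (3.44 ± 0.242).

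The 4 members below the filter were not tested with the others. Ppara, the PPAR of liver and other oxidative tissues, was at 0 in 23 libraries and at 0.0126 in the library KO ACM 88. Pdk4, a kinase that holds back pyruvate oxidation and a classical PPAR target, was at 0 in 22 libraries and at 0.0433 at most. Acot1, the cytosolic neighbour of Acot2 on chromosome 12, had an FPKM of 0.536 to 1.03. Angptl4, a secreted inhibitor of lipoprotein lipase and a PPAR target, had an FPKM of 0.712, 0.924, 1.47 and 1.14 in WT S1P cells. In WT untreated cells it was at 0.369, 0.354, 0.569 and 0.433, in WT ACM cells at 0.343 to 0.482 and in KO cells at 0.186 to 0.48, so all 4 WT S1P libraries lay above all others.

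Differences are given on the log2(FPKM + 1) scale, on which changes of low genes come out too small, with the SE from 1 limma fit of all 24 libraries. A gene was called where limma's p, adjusted by the Benjamini-Hochberg method across the 11377 genes, was under 0.05. In whole cultures, fewer cells of one kind and less RNA per cell cannot be told apart.

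In WT cells ACM raised 7 of the 30 kept members and lowered 3, and S1P raised 11 and lowered 6. The members called were 33.3% under ACM, beside 22.1% of all genes tested (12.2% higher and 9.85% lower), and 56.7% under S1P, beside 52.4% of all genes (25.2% higher and 27.2% lower). The S1P share was thus close to that of all genes, and the median difference of the members was -0.01 under ACM and 0.09 under S1P, where that of all genes was -0.00 and 0.00. Acot2, Cpt1a and Slc25a20 had the 3 largest rises of the members under both treatments, and their size was not ranked among all genes. After rescaling to TPM, which moves the median of all genes by -0.11 under ACM, the ACM split became 3 higher and 8 lower, while these 3 rises stayed called. Under S1P, median scaling gave 15 higher and 4 lower, and TPM scaling gave 9 higher and 6 lower. Both treatments were compared with the same WT untreated libraries, so their values are set side by side without an overlap test. The WT S1P libraries were not even. In 10 of the 17 members called with S1P, libraries 27 and 28 both lay farther from the WT untreated mean than 25 and 26. Acot2, Cpt1a, Slc25a20, Pparg and Acsl3 were among them. This was not counted over all genes, and its cause was not tested.

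**Figure D1:**
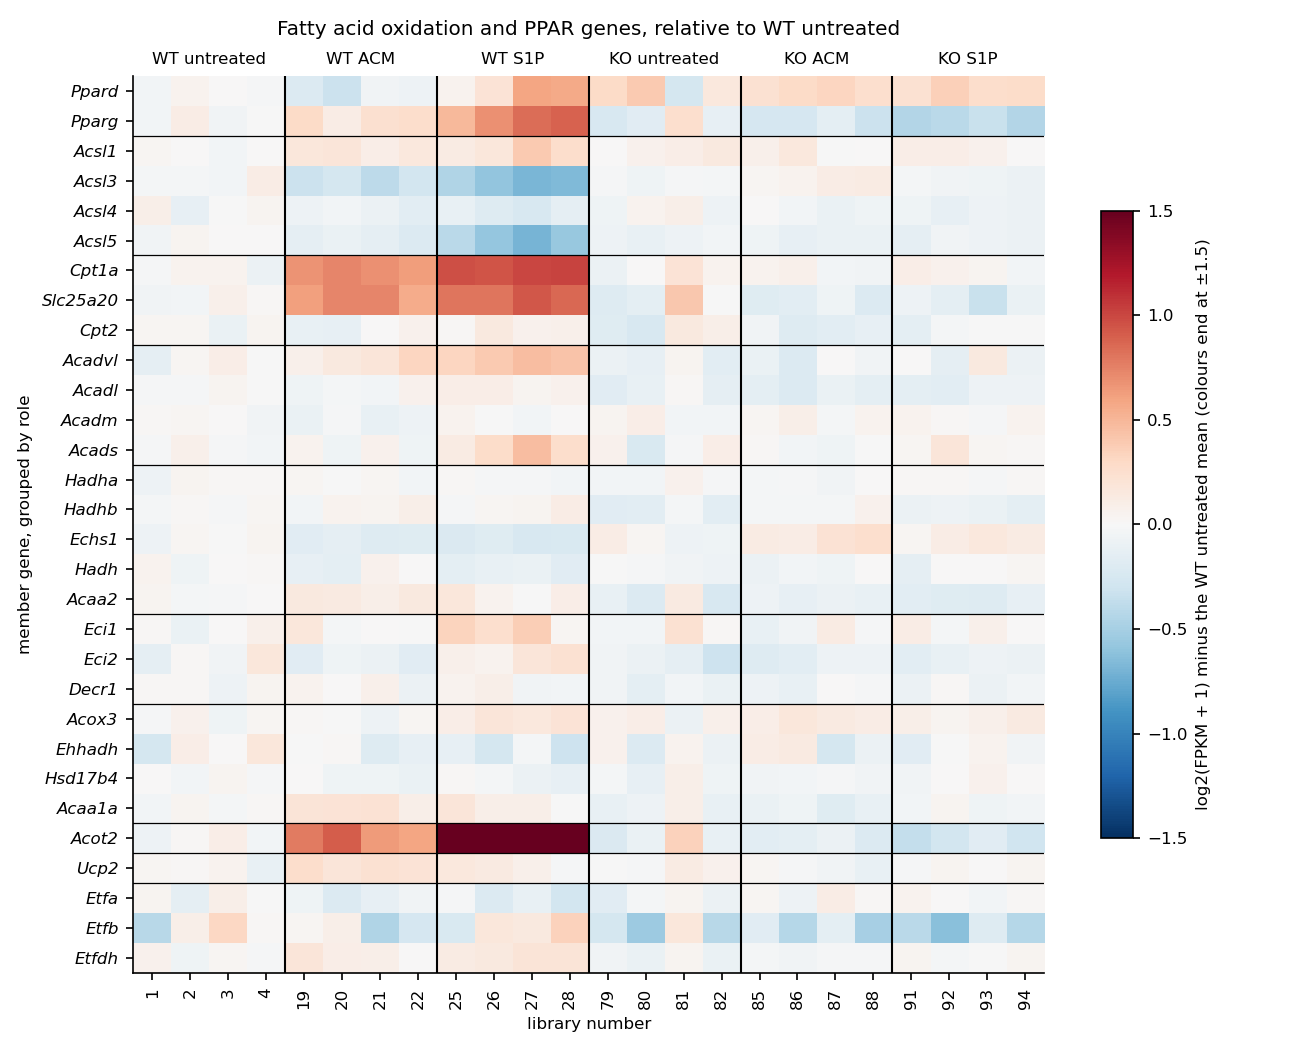
Difference of each library from the WT untreated mean on the log2(FPKM + 1) scale, for the 30 kept members (vertical axis, grouped by role) and 24 libraries (horizontal axis, library number within its group). Red cells are higher and blue cells lower; Acot2 in WT S1P, with a mean difference of 2.09, lies beyond the end of the colour scale, and the library labelled KO untreated 81 stands apart from its group in Slc25a20, Pparg and Acot2.

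Acot2, a mitochondrial thioesterase that frees fatty acids from coenzyme A, moved the most of all members. Its FPKM was 2.91, 3.18, 3.43 and 3.01 in WT untreated, 6.06, 6.77, 5.45 and 5.21 in WT ACM and 13, 14.7, 19.6 and 20 in WT S1P libraries. The 3 WT groups did not overlap, and WT S1P libraries 27 and 28 were the highest. The rise was 0.73 ± 0.12 with ACM (SE, n = 4 against 4, limma adjusted p = 0.000124) and 2.09 ± 0.12 with S1P (limma adjusted p = 5.43e-12), and WT S1P exceeded WT ACM cells, at -1.36 ± 0.12 for ACM minus S1P (limma adjusted p = 2.63e-08). In KO cells the FPKM was 2.55, 2.86 and 2.82 in untreated cells and 4.23 in the library labelled KO untreated 81. It was 2.69, 2.74, 2.89 and 2.59 in KO ACM and 2.23, 2.4, 2.68 and 2.35 in KO S1P cells, so apart from that library every KO value lay below the lowest WT untreated value of 2.91. The transcripts of Acot1 and Acot2 were 94.3% identical over 1330 aligned bases, and 20.5% of the 75-base stretches of Acot2 occur unchanged in Acot1, so reads could be split between them. Acot1 was at 0.889, 0.785, 1.02 and 0.906 in WT S1P and 0.66, 1.03, 0.665 and 0.972 in WT untreated libraries, which overlapped.

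The carnitine shuttle came next. Cpt1a, on the outer mitochondrial membrane, had an FPKM of 23, 24.2, 24.3 and 22 in WT untreated, 38, 39.4, 38.2 and 36.6 in WT ACM and 46.6, 45.8, 47.6 and 48.1 in WT S1P libraries. These 3 groups did not overlap, and the spread within each was small. The rise was 0.68 ± 0.05 with ACM (limma adjusted p = 5.85e-09) and 0.98 ± 0.05 with S1P (limma adjusted p = 1.14e-12), a ratio of mean FPKM of 1.63 and 2.01, and ACM minus S1P cells gave -0.30 ± 0.05 (limma adjusted p = 4.79e-05). In KO cells Cpt1a was at 22, 23.5 and 24.2 untreated, 24.2, 24.6, 22.7 and 22.5 with ACM and 25.2, 24.4, 24.1 and 22.6 with S1P, and at 27 in the library labelled KO untreated 81. All KO values lay below the WT ACM range, and without that library they spanned 22 to 25.2, beside 22 to 24.3 in WT untreated cells.

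Slc25a20, the translocase that exchanges acylcarnitine for carnitine across the inner membrane, had an FPKM of 5.73, 5.81, 6.4 and 6.11 in WT untreated, 9.71, 10.6, 10.6 and 9.33 in WT ACM and 11.2, 11.2, 12.4 and 11.7 in WT S1P libraries. It rose by 0.66 ± 0.09 with ACM (limma adjusted p = 2.27e-05) and by 0.85 ± 0.09 with S1P (limma adjusted p = 6.12e-08), and the 2 treated groups, which lay above all untreated libraries, were not called different (-0.19 ± 0.09, ACM minus S1P, limma adjusted p = 0.0974). Among KO libraries it was at 5.15, 5.35 and 5.96 untreated, 5.17, 5.27, 5.69 and 5.07 with ACM and 5.66, 5.32, 4.57 and 5.54 with S1P, with 8.3 in the library labelled KO untreated 81, the only KO value above the WT untreated range. Cpt2, which ends the shuttle by remaking acyl-CoA in the matrix, was not called in any of the 11 comparisons and had an FPKM of 8.74 to 9.75 in WT untreated and 9.56 to 10.5 in WT S1P libraries.

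**Figure D2:**
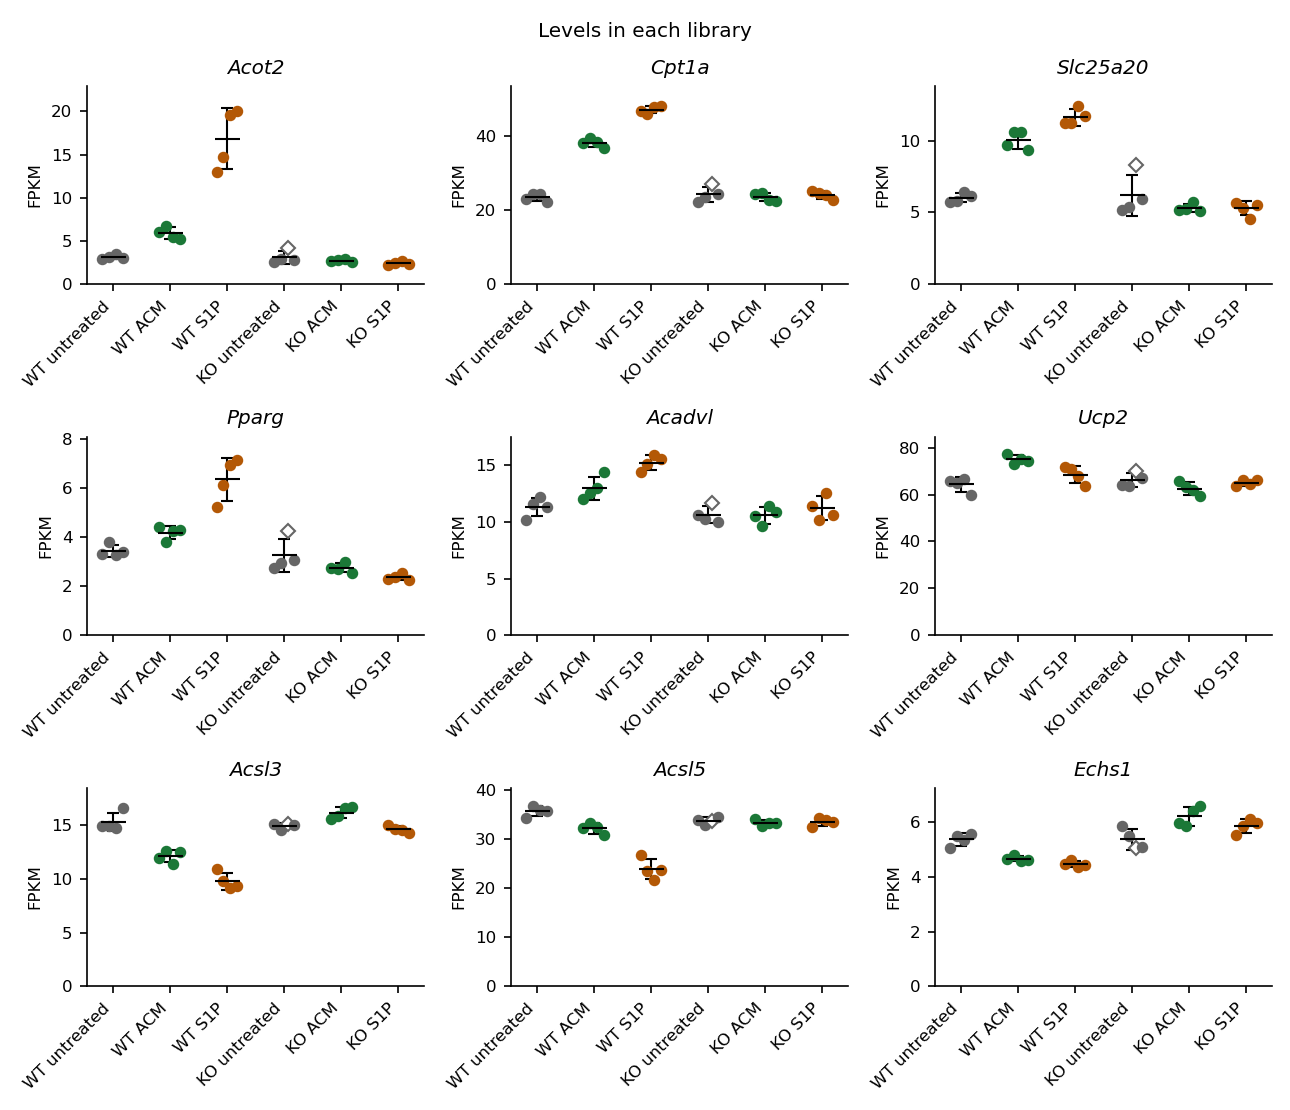
FPKM (vertical axis, from 0) of 9 members in the libraries of each of the 6 groups (horizontal axis); circles are libraries, the open diamond is the library labelled KO untreated 81, and the lines are the mean and SD of 4 libraries. Acot2, Cpt1a and Slc25a20 are higher in every treated WT library than in any untreated one, Acsl3 and Acsl5 are lowest in WT S1P, and no such step is seen in the KO groups.

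These protein-coding genes lie at chr12:83987861-83993873 (Acot2), chr19:3322334-3385733 (Cpt1a) and chr9:108662088-108684641 (Slc25a20) in GRCm38, all on the plus strand. Their promoters are shown because they rose together under both treatments in WT cells. The sequences are from RefSeq (GRCm38.p6), on the plus strand and 5′ to 3′, and cover the bases before the start site that no annotated exon covers: chr12:83987611-83987860 for Acot2, chr19:3323051-3323284 for Cpt1a and chr9:108661886-108662087 for Slc25a20. Start sites here and below are those of RefSeq, and for Cpt1a and Slc25a20 they lie past the annotated gene starts given above. The Cpt1a stretch therefore lies inside the annotated gene. Capitals mark the nuclear receptor half-site AGGTCA on either strand, which occurs 1 time in Cpt1a and 0 times in the others.
Acot2: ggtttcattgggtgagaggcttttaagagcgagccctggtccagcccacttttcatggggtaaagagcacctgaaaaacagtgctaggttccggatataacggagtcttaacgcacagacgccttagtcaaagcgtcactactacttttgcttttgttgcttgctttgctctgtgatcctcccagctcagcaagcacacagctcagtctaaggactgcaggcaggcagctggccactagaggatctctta
Cpt1a: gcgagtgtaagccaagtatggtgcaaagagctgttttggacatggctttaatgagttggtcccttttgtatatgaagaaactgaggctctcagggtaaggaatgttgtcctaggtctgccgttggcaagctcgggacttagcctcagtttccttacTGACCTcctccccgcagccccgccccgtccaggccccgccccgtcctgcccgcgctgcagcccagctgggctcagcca
Slc25a20: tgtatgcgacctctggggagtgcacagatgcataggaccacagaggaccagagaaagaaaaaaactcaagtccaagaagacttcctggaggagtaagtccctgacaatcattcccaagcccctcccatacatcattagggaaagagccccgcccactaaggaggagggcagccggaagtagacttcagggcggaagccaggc

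PPAR and RXR bind a direct repeat of the half-site with 1 base between, AGGTCANAGGTCA. Windows from 250 bases before to 50 bases after the start site were searched on both strands in all 32851 RefSeq windows. Of these, 33 belong to 30 of the 34 listed members, chosen without regard to the FPKM filter. With 0 or 1 mismatches 0 of these 30 members held the repeat, beside 0.0396% and 0.554% of all windows. With 2 mismatches 3 members did, beside 3.86% of all windows. They are printed on the strand of the motif, with the letters that match it in capitals: Echs1 at chr7:140116492-140116504, first base -83 from the start site, Etfa at chr9:55512308-55512320, on the strand opposite to the gene and at -77, and Slc25a20 at chr9:108662142-108662154, at 7 bases past the start.
Echs1: AGGTCAcgGGTCc
Etfa: AGGgCAaAGGTaA
Slc25a20: AGGTgAaAGGTCg

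The half-site alone, which is part of the repeat, occurred in 5 of the 30 listed members with a window (Acadm, Acadvl, Cpt1a, Echs1 and Pparg). It occurred in 16.3% of all windows. The element of estrogen-related receptors, TCAAGGTCA, which holds the half-site, occurred in 0 of these 30 members and in 0.423% of all windows. These matches describe letters in a window near the start site and no binding was measured.

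Of the receptors, Pparg (chr6:115360951-115490399), the PPAR of adipocytes and macrophages, had an FPKM of 3.3, 3.79, 3.26 and 3.4 in WT untreated, 4.42, 3.8, 4.24 and 4.3 in WT ACM and 5.23, 6.14, 6.94 and 7.17 in WT S1P libraries. WT S1P libraries all lay above the others, with 27 and 28 the highest. It rose with S1P by 0.72 ± 0.09 (limma adjusted p = 4.01e-07), while the ACM difference of 0.22 ± 0.09 was not called (limma adjusted p = 0.0689) and was called without the library labelled KO untreated 81, which enters the shared error (limma adjusted p = 0.0186). Untreated KO libraries were at 2.75, 2.94 and 3.07, KO ACM at 2.73, 2.72, 3 and 2.55 and KO S1P at 2.28, 2.36, 2.53 and 2.27, with 4.27 in the library labelled KO untreated 81. All KO S1P values lay below all WT values.

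Ppard, the widely expressed PPAR, had an FPKM of 2.26, 2.47, 2.37 and 2.32 in WT untreated, 1.92, 1.69, 2.24 and 2.18 in WT ACM and 2.47, 2.88, 4.05 and 3.98 in WT S1P libraries. The S1P libraries were uneven, with 25 at the top of the untreated range and 27 and 28 well above it. Ppard was called higher with S1P (0.36 ± 0.12, limma adjusted p = 0.0131), a call lost without WT S1P 27 or without WT S1P 28 (0.28 each), and ACM minus S1P cells gave -0.52 ± 0.12 (limma adjusted p = 0.00106). In KO cells Ppard was at 3.09, 3.42 and 2.73 untreated, 2.94, 3.1, 3.2 and 3.01 with ACM and 2.92, 3.29, 3.02 and 3.06 with S1P, with 1.79 in the library labelled KO untreated 81, lower than the other KO libraries.

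The acyl-CoA synthetases did not move as one. Acsl3 (chr1:78657825-78707743), tied to the endoplasmic reticulum and lipid droplets, had an FPKM of 14.9, 14.9, 14.8 and 16.6 in WT untreated, 12, 12.6, 11.4 and 12.5 in WT ACM and 10.9, 9.81, 9.15 and 9.31 in WT S1P libraries. The 3 WT groups did not overlap. Acsl3 fell by 0.31 with ACM (SE 0.04, limma adjusted p = 4.85e-05) and by 0.60 with S1P (SE 0.04, limma adjusted p = 6.53e-10), and in KO libraries it was at 15.1, 14.6 and 15 untreated, 15.6, 15.9, 16.6 and 16.7 with ACM and 15, 14.7, 14.6 and 14.3 with S1P, and 15.1 in the library labelled KO untreated 81. Utp14b, which shares 244 exon bases with Acsl3 on the same strand, differed by -0.33 ± 0.06 with ACM and -0.53 ± 0.06 with S1P, and its part in the Acsl3 values was not tested.

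Acsl5 (chr19:55251938-55297720), a synthetase of mitochondria and endoplasmic reticulum, had an FPKM of 34.2, 36.6, 35.8 and 35.7 in WT untreated, 32.2, 33.2, 32.3 and 30.7 in WT ACM and 26.7, 23.4, 21.6 and 23.7 in WT S1P libraries. Again the 3 WT groups did not overlap. It differed by -0.14 ± 0.04 with ACM (limma adjusted p = 0.0172) and by -0.56 ± 0.04 with S1P (limma adjusted p = 5.92e-10), a call lost for ACM without WT untreated 2 (-0.13) or without WT ACM 22 (-0.12). The KO libraries were at 33.8, 32.8 and 34.4 untreated, 34.1, 32.7, 33.2 and 33.2 with ACM and 32.3, 34.2, 33.8 and 33.5 with S1P, and 33.7 in the library labelled KO untreated 81, so none fell to the WT S1P range. Zdhhc6, which shares 404 exon bases with Acsl5 on the opposite strand, was not called (-0.02 ± 0.04 with S1P). Acsl1, a synthetase known as a PPAR target, went the other way: its WT libraries spanned 5 to 5.32 untreated, 5.61 to 6.03 with ACM and 5.74 to 7.11 with S1P, with no overlap of treated and untreated ones. It was called higher with ACM (0.15 ± 0.05, limma adjusted p = 0.0262) and with S1P (0.24 ± 0.05, limma adjusted p = 0.000255), and the ACM call was lost in 6 of 32 alternative analyses. Acsl4, which prefers arachidonate, was called lower with S1P (-0.17 ± 0.04, limma adjusted p = 0.00323), with libraries at 35 to 38.3 against 37.9 to 44.1 that overlapped.

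**Figure D3:**
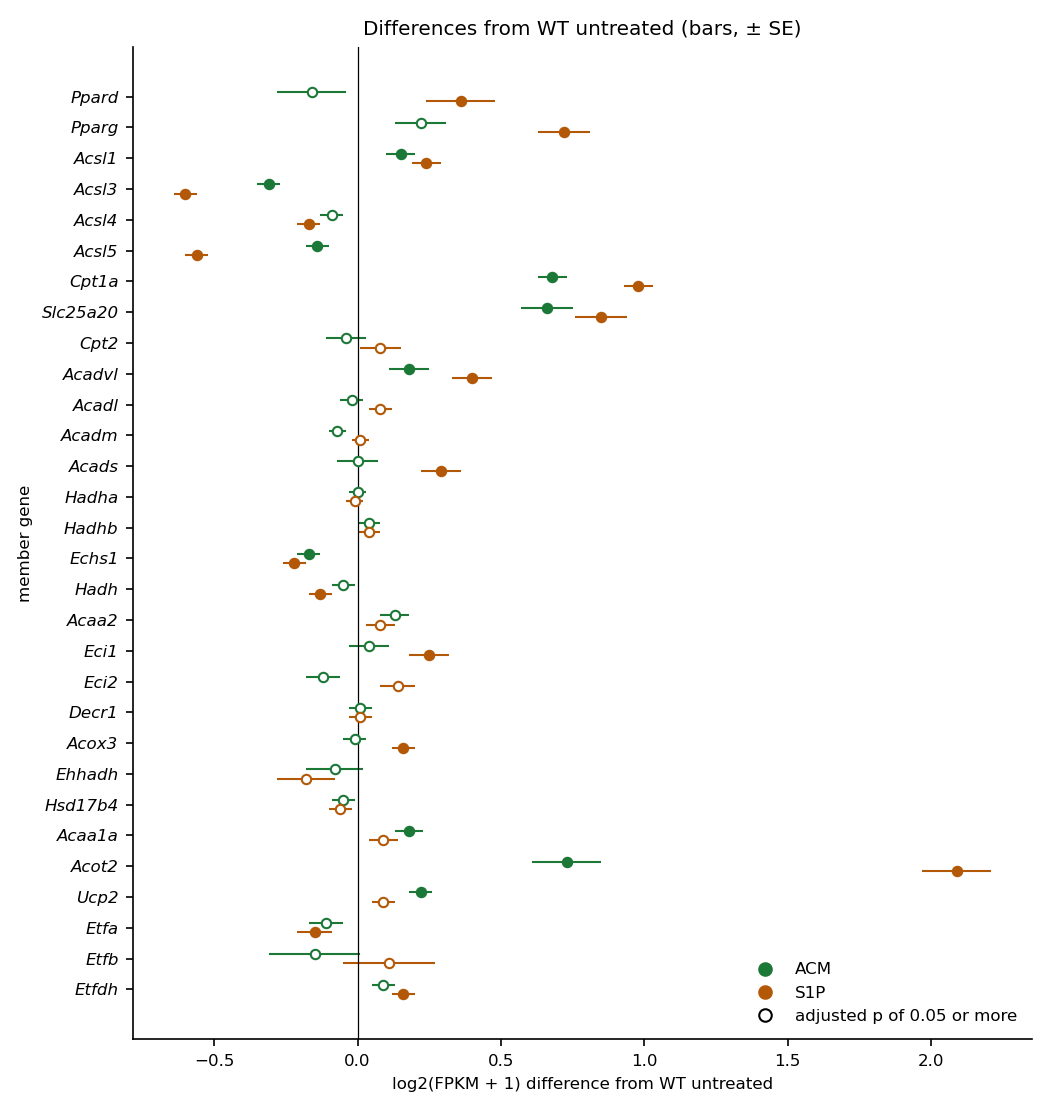
Difference of WT ACM and WT S1P cells from WT untreated cells on the log2(FPKM + 1) scale (horizontal axis, bars are 1 SE) for the 30 kept members (vertical axis); filled points had a limma adjusted p under 0.05. Acot2, Cpt1a and Slc25a20 lie to the right for both treatments and Acsl3 and Acsl5 to the left, and most enzymes of the spiral lie near 0.

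Among the mitochondrial acyl-CoA dehydrogenases, which open each turn of the spiral, Acadvl and Acads were called with S1P. Acadm was not, and whether Acadl was called depended on the library labelled KO untreated 81. Acadvl, for very long chains, had an FPKM of 10.2, 11.6, 12.2 and 11.3 in WT untreated, 12, 12.6, 13 and 14.4 in WT ACM and 14.4, 15.1, 15.9 and 15.6 in WT S1P libraries, the last with no overlap with untreated cells. It rose with S1P (0.40 ± 0.07, limma adjusted p = 2.38e-05), and its ACM call (0.18 ± 0.07, limma adjusted p = 0.0494), where the libraries overlapped, was lost in 21 of 32 alternative analyses. In KO cells it was at 10.6, 10.3 and 10 untreated, 10.5, 9.64, 11.4 and 10.9 with ACM and 11.4, 10.2, 12.6 and 10.6 with S1P, and 11.7 in the library labelled KO untreated 81. Dvl2, which shares 1151 exon bases with Acadvl on the opposite strand, was at -0.15 ± 0.05 with S1P, and since no strand setting is given, reads of such pairs cannot be told apart.

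Acads, for short chains, had an FPKM of 13.6, 14.6, 13.6 and 13.3 in WT untreated, 14.3, 13.1, 14.4 and 13.1 in WT ACM and 15.1, 16.9, 19.4 and 16.8 in WT S1P libraries. It rose with S1P (0.29 ± 0.07, limma adjusted p = 0.000877), where the libraries did not overlap untreated ones, and differed by -0.00 ± 0.07 with ACM. In KO cells it was at 14.5, 11.6 and 14.8 untreated (13.6 in the library labelled KO untreated 81), 13.9, 13.3, 13.1 and 13.7 with ACM and 14.1, 15.8, 14.1 and 13.9 with S1P. Neither Acadl nor Acadm, the medium-chain enzyme, was called against untreated cells: Acadl differed by 0.08 ± 0.04 and Acadm by 0.01 ± 0.03 with S1P (intervals of 2 SE either side 0.00 to 0.15 and -0.06 to 0.07), and without the library labelled KO untreated 81 Acadl was called (limma adjusted p = 0.0361).

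Of the 5 genes of the later steps of the spiral, 0 rose and 1 fell with ACM, beside 22.1% of all genes called. With S1P 0 rose and 2 fell, beside 52.4% of all genes called, so neither count sets these steps apart. Hadha and Hadhb, the subunits of the trifunctional protein that handles long chains, differed by 0.00 and 0.04 with ACM and by -0.01 and 0.04 with S1P (SE 0.03 and 0.04), none of them called. Acaa2, the mitochondrial thiolase, was not called either (0.13 ± 0.05 with ACM and 0.08 ± 0.05 with S1P). Echs1, the short-chain enoyl-CoA hydratase, was at 5.07, 5.51, 5.35 and 5.58 in WT untreated, 4.65, 4.79, 4.59 and 4.63 in WT ACM and 4.47, 4.63, 4.38 and 4.43 in WT S1P libraries. Both treated groups lay below all untreated libraries, with differences of -0.17 ± 0.04 (limma adjusted p = 0.00614) and -0.22 ± 0.04 (limma adjusted p = 0.000159). The KO libraries were at 5.87, 5.51 and 5.08 untreated, 5.07 in that labelled KO untreated 81, 5.96, 5.88, 6.42 and 6.61 with ACM and 5.52, 5.88, 6.11 and 5.97 with S1P. Paox, which shares 142 exon bases with Echs1 on the opposite strand, differed more, by -0.48 ± 0.09 with ACM and -0.93 ± 0.09 with S1P, and its part in the Echs1 values was not tested. Hadh, the dehydrogenase for shorter chains, was at 11.6, 10.7, 11.2 and 11.3 in WT untreated, 10.2, 9.99, 11.8 and 11.2 in WT ACM and 10, 10.3, 10.4 and 9.82 in WT S1P libraries, and was called lower with S1P (-0.13 ± 0.04, limma adjusted p = 0.0138). The WT S1P libraries of Hadh lay below all untreated ones, and the call was lost after median scaling (-0.09). In KO cells Hadh was at 11.1, 11 and 10.6 untreated, 10.5, 10.9, 10.7 and 11.2 with ACM and 10.1, 11.2, 11.2 and 11.4 with S1P, and 10.8 in the library labelled KO untreated 81.

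Of the auxiliary enzymes for unsaturated chains, Eci1, an enoyl-CoA isomerase, was at 11.8, 10.8, 11.7 and 12.3 in WT untreated, 13.2, 11.4, 11.7 and 11.6 in WT ACM and 14.9, 14, 15.3 and 11.9 in WT S1P libraries. It was called higher with S1P (0.25 ± 0.07, limma adjusted p = 0.00607), although WT S1P 28 lay inside the untreated range. Eci2, the isomerase shared with peroxisomes, was at 4.18, 4.56, 4.46 and 4.18 in WT ACM and 5.15, 5.03, 5.61 and 5.83 in WT S1P libraries, which did not overlap (-0.26 ± 0.06, ACM minus S1P, limma adjusted p = 0.00152), and untreated ones, at 4.29, 4.91, 4.59 and 5.57, overlapped both. In KO cells Eci1 was at 11.3, 11.3 and 11.8 untreated, 10.7, 11.2, 12.8 and 11.5 with ACM and 12.7, 11.4, 12.3 and 11.7 with S1P, and 13.8 in the library labelled KO untreated 81. Eci2 was at 4.63, 4.46 and 3.71 untreated, 4.11, 4.22, 4.53 and 4.52 with ACM and 4.22, 4.4, 4.54 and 4.47 with S1P in KO cells, and 4.3 in that library, so every KO value of Eci2 lay below the WT S1P range. Decr1, the dienoyl-CoA reductase, was called in 0 of the 11 comparisons (0.01 ± 0.04 with S1P).

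Peroxisomal members differed from untreated cells by 0.18 at most in WT cells. Acaa1a, the peroxisomal thiolase, was at 28, 29.6, 28.1 and 29.2 in WT untreated, 33.1, 33.2, 33.6 and 30.5 in WT ACM and 32.8, 30.7, 30.7 and 28.5 in WT S1P libraries, and was called higher with ACM (0.18 ± 0.05, limma adjusted p = 0.00776), though not after TPM scaling (0.07). Myd88, which shares 290 exon bases with Acaa1a on the opposite strand, differed by 0.12 ± 0.05 with ACM, and its part in the Acaa1a values was not tested. Acox3, an oxidase for branched chains, was at 9.13, 9.67, 8.75 and 9.41 untreated, 9.37, 9.19, 8.72 and 9.45 with ACM and 10, 10.6, 10.4 and 10.8 with S1P and was called higher with S1P (0.16 ± 0.04, limma adjusted p = 0.00152), though not after TPM scaling (0.13). KO values of Acaa1a were 26.6, 27.3 and 26.5 untreated, 26.7, 27.5, 25.1 and 26.4 with ACM and 27.9, 29.6, 27.4 and 28 with S1P, and 30.6 in the library labelled KO untreated 81. Those of Acox3 were 9.68, 9.98 and 9.78 untreated, 10, 10.5, 10.2 and 10.1 with ACM and 9.91, 9.49, 9.77 and 10.2 with S1P, and 8.63 in that library, the lowest KO value of the gene. Ehhadh and Hsd17b4, the bifunctional enzymes, were called in 0 of the 11 comparisons, with S1P differences of -0.18 ± 0.10 and -0.06 ± 0.04.

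Ucp2, the member with the highest level, was at 65.8, 65.1, 66.8 and 59.6 in WT untreated, 77.4, 73.1, 75.2 and 74.5 in WT ACM and 71.8, 70.9, 67.7 and 63.6 in WT S1P libraries. WT ACM lay above all untreated libraries and WT S1P overlapped them. It rose with ACM (0.22 ± 0.04, limma adjusted p = 0.000767; 0.11 and not called after TPM scaling), the S1P difference of 0.09 ± 0.04 was not called (limma adjusted p = 0.082), and every KO value lay below the WT ACM range. They were 64.1, 63.5 and 67.2 untreated, 65.7, 63.4, 61.8 and 59.4 with ACM and 63.6, 66, 64.3 and 66.1 with S1P, and 70.1 in the library labelled KO untreated 81. Ucp2 was 1 of 3 members called higher with ACM than with S1P (0.13 ± 0.04, limma adjusted p = 0.0159), beside Acsl3 and Acsl5, while 10 members were called lower. Dnajb13, which shares 305 exon bases with Ucp2 on the opposite strand, differed by -0.08 ± 0.10 with ACM against untreated cells, and its part in the Ucp2 values was not tested. The Ucp2 call between ACM and S1P was lost with TPM scaling (0.06), with median scaling (0.10), without WT ACM 19 (0.12) and without WT S1P 28 (0.10). In all 43.3% of the members were called in this comparison, near the 41.5% of all genes (23% higher and 18.5% lower). TPM scaling gave 2 higher and 14 lower there.

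Electron transfer showed small and opposed differences with S1P. Etfa, a subunit of the flavoprotein, was at 38.6, 34, 39.7 and 37.3 in WT untreated, 35.6, 32.2, 34.2 and 36.1 in WT ACM and 37, 32.3, 34.4 and 30.6 in WT S1P libraries, which overlapped; its S1P call (-0.15 ± 0.06, limma adjusted p = 0.0293) was lost in 8 of 32 alternative analyses. Etfdh, which passes the electrons to ubiquinone, was at 6.1, 5.49, 5.93 and 5.74 untreated, 6.7, 6.29, 6.25 and 5.82 with ACM and 6.44, 6.52, 6.76 and 6.76 with S1P, and was called higher with S1P (0.16 ± 0.04, limma adjusted p = 0.00119), though not after TPM scaling (0.14). An opposite-strand gene that shares 278 exon bases with Etfdh, 4930579G24Rik, was lower with S1P by 1 log2 unit (SE 0.11), and its part in the Etfdh values was not tested. Etfa in KO cells was at 33.1, 36.7 and 35.2 untreated, 38.2, 35.5, 40.4 and 37.7 with ACM and 38.9, 37.5, 36.3 and 37.8 with S1P, and 38.4 in the library labelled KO untreated 81. Etfdh in KO cells was at 5.55, 5.37 and 5.37 untreated, 5.69, 5.58, 5.73 and 5.71 with ACM and 6.03, 5.65, 5.76 and 5.99 with S1P, and 6 in that library, and both genes overlapped WT untreated cells. Etfb, the other subunit, varied most within its groups, from 3.74 to 6.86 in WT untreated libraries, where 476 reads were recovered in all. Its S1P difference of 0.11 ± 0.16 had an interval of -0.22 to 0.44 (2 SE either side). On the same strand Etfb shares 617 exon bases with Gm45233 and 61 with Mir7051. Those genes reached an FPKM of 0 and 0.772 at most, and the part of the shared bases in the Etfb values was not tested.

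In KO cells limma called 0 of the 30 members with ACM and 0 with S1P, where it called 0.00879% of all genes in each comparison. At an unadjusted p under 0.05 there were 4 members with ACM (Acsl3, Hadhb, Echs1 and Acox3) and 3 with S1P (Pparg, Echs1 and Acot2). ACM against S1P in KO cells also gave 0 called members (0.0352% of all genes) and 2 at an unadjusted p under 0.05. The share of all genes at that unadjusted threshold was not counted, so these 4, 3 and 2 members cannot be read against it. Member differences ran from -0.17 to 0.18 with ACM and from -0.33 to 0.14 with S1P, whereas in WT cells they ran from -0.31 to 0.73 and from -0.60 to 2.09. For Cpt1a the interval of 2 SE either side was -0.13 to 0.06 with ACM and -0.10 to 0.09 with S1P, and for Acot2 it was -0.36 to 0.10 and -0.48 to -0.02. These Acot2 differences became -0.01 ± 0.11 with ACM and -0.13 ± 0.11 with S1P once the library labelled KO untreated 81 was left out, and were not called either. Pparg had the lowest value with S1P, at -0.33 ± 0.09 (limma adjusted p = 0.199), and -0.22 ± 0.07 without the library labelled KO untreated 81.

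**Figure D4:**
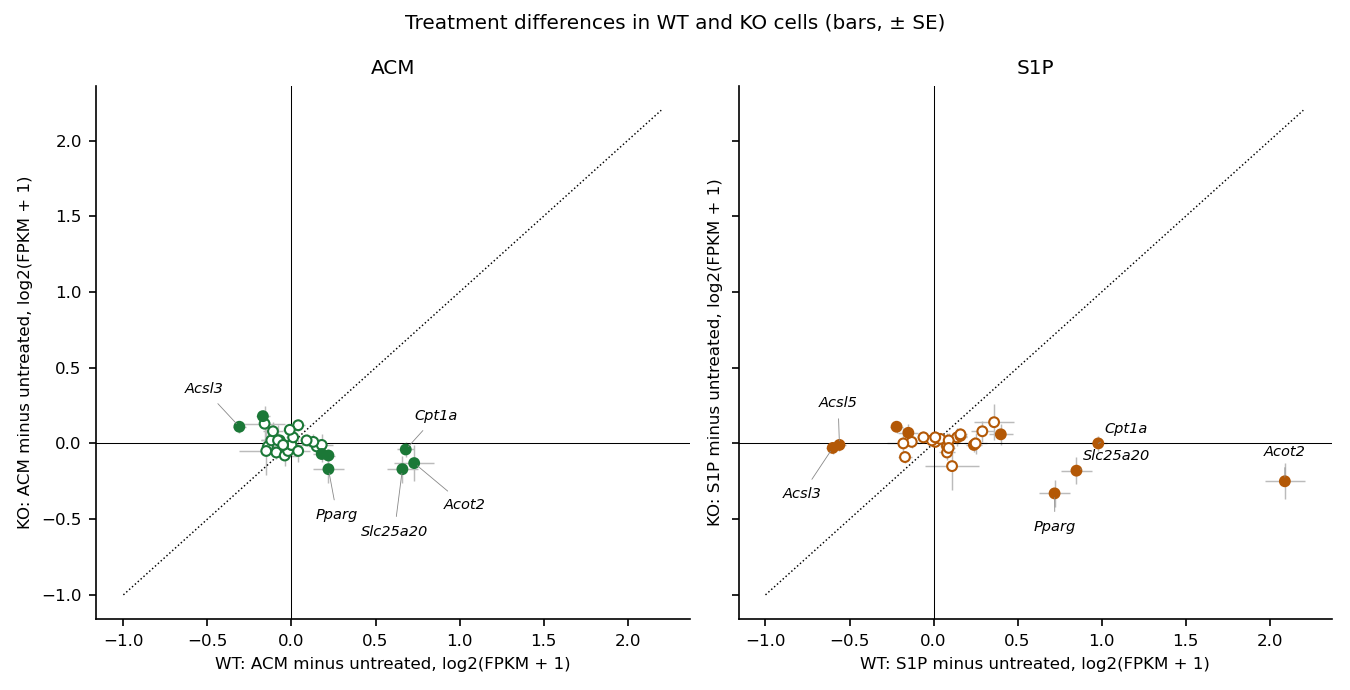
Treatment difference in KO cells (vertical axis) against that in WT cells (horizontal axis) for the 30 kept members, on the log2(FPKM + 1) scale with bars of 1 SE, for ACM (left) and S1P (right); filled points had a genotype by treatment term with a limma adjusted p under 0.05, and the dotted line marks equal differences. In the S1P panel Acot2, Cpt1a, Slc25a20 and Pparg lie at 2.09, 0.98, 0.85 and 0.72 on the horizontal axis and at or below 0 on the vertical axis.

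The difference between genotypes in the response was tested directly as the KO treatment difference minus the WT one. With ACM 8 of 30 members were called, 2 higher and 6 lower (26.7%, beside 17.1% of all genes, 7.41% higher and 9.64% lower). After TPM scaling, which moves the median of all genes by 0.11 here, 4 were higher and 3 lower. With S1P 10 were called, 4 higher and 6 lower (33.3%, where 41.9% of all genes were, 22.5% higher and 19.4% lower), and 3 and 11 after median scaling. Although 0 members were called in KO cells, each term holds the KO difference as well as the WT one. For Cpt1a with S1P the term was -0.98 beside a WT difference of 0.98. For Pparg with S1P it was -1.05 beside 0.72, and for Echs1 with ACM 0.35 beside -0.17. With S1P the largest were -2.34 ± 0.16 for Acot2 (limma adjusted p = 8.69e-10), -1.05 ± 0.12 for Pparg, -1.03 ± 0.13 for Slc25a20 and -0.98 ± 0.07 for Cpt1a (limma adjusted p = 8.9e-07, 1.48e-06 and 9.8e-10). Acsl3 and Acsl5 had positive terms, 0.57 ± 0.06 and 0.55 ± 0.06; both fell in WT cells and neither was called in KO cells. With ACM the terms were -0.86 ± 0.16 for Acot2, -0.83 ± 0.13 for Slc25a20, -0.72 ± 0.07 for Cpt1a and 0.42 ± 0.06 for Acsl3 (limma adjusted p = 0.00112, 0.000158, 1.37e-06 and 0.000158). The Pparg term with ACM, -0.40 ± 0.12 (limma adjusted p = 0.031), was -0.29 and not called without the library labelled KO untreated 81, and was lost in 10 of 32 alternative analyses, as was the Etfa term with S1P (0.22 ± 0.08). The ACM terms of Ucp2 (-0.30 ± 0.06) and Acaa1a (-0.25 ± 0.06) were lost with TPM scaling (-0.19 and -0.14). Without the library labelled KO untreated 81 the S1P terms were -2.22 ± 0.14 for Acot2, -0.90 ± 0.08 for Slc25a20 and -0.93 ± 0.06 for Cpt1a, and the ACM terms -0.74 ± 0.14, -0.70 ± 0.08 and -0.66 ± 0.06, all called.

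Untreated KO and WT cells were not called different in any member (0 of 30, beside 2.47% of all genes). The 3 members Acadl, Hadhb and Eci2 had an unadjusted p under 0.05, a threshold at which all genes were not counted. The library labelled KO untreated 81 decided the count of called members. It lay above the 3 other KO untreated libraries in 20 of the 30 members and below them in 4, and outside the range of the 11 other KO libraries in 18. Without it 3 members were called lower in KO cells, beside 8.16% of all genes called and 4.03% called lower: Acaa2 (-0.18 ± 0.04, limma adjusted p = 0.00226), Hadhb (-0.16 ± 0.04, limma adjusted p = 0.00654) and Acadl (-0.14 ± 0.03, limma adjusted p = 0.011). In FPKM, Acaa2 was at 24.6, 23.1 and 22.4 in those 3 KO libraries against 27.4, 26.2, 26.3 and 26.8 in WT untreated cells, with no overlap. Hadhb was at 7.8, 7.83 and 7.87 against 8.66, 8.99, 8.79 and 9.06, and Acadl at 53.5, 55.7 and 54.8 against 59.5, 59.4, 61.9 and 59.9, again with no overlap. With all libraries, KO minus WT untreated was -0.02 ± 0.12 for Acot2, 0.04 ± 0.05 for Cpt1a and 0.02 ± 0.09 for Slc25a20. Without that labelled KO untreated 81 these were -0.14 ± 0.11, -0.01 ± 0.04 and -0.11 ± 0.06, none of them called.

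Under treatment more members were called between the genotypes than in untreated cells. With ACM 15 members were called, 5 higher and 10 lower in KO cells (50%, beside 28% of all genes, 12.5% higher and 15.5% lower; 5 and 7 after TPM scaling). With S1P 20 were called, 5 higher and 15 lower (66.7%, beside 52.4% of all genes, 26.9% higher and 25.4% lower; 3 and 17 after TPM or median scaling). The median difference of the members was -0.04 with ACM and -0.12 with S1P, and that of all genes 0.01 and 0.00. KO minus WT cells gave -0.88 ± 0.12 for Acot2 with ACM and -2.36 ± 0.12 with S1P (limma adjusted p = 9.64e-06 and 1.15e-12). Cpt1a differed by -0.67 ± 0.05 and -0.94 ± 0.05, Slc25a20 by -0.81 ± 0.09 and -1.01 ± 0.09, and Pparg by -0.47 ± 0.09 and -1.13 ± 0.09, all with no overlap between genotypes and all called. In the other direction, KO cells were higher in Acsl3 (0.39 ± 0.04 and 0.54 ± 0.04) and Echs1 (0.35 ± 0.04 and 0.33 ± 0.04) under both treatments, in Acsl5 under S1P (0.47 ± 0.04) and in Ppard under ACM (0.44 ± 0.12, limma adjusted p = 0.00689). Acaa2 (-0.25 ± 0.05), Acadl (-0.19 ± 0.04) and Hadhb (-0.14 ± 0.04) of the spiral and Etfb (-0.52 ± 0.16) of electron transfer were called lower in KO cells under S1P, though none was called for S1P in WT cells. Acaa2, Acadl and Hadhb were also called lower in untreated KO cells without the library labelled KO untreated 81. Without it, untreated Ppard was at 2.73 to 3.42 in KO and 2.26 to 2.47 in WT libraries. Untreated Pparg was then at 2.75 to 3.07 in KO and 3.26 to 3.79 in WT libraries, and neither was called. Granulocyte markers differed with genotype (summed FPKM 8.92 to 10.8 in KO ACM and 2.55 to 3.3 in WT ACM libraries), and so did the macrophage markers. Of these 9, 2 were called higher and 4 lower in KO cells with ACM, from -0.95 (Fcgr1) to 0.63 (Mrc1), and 5 higher and 1 lower with S1P, from -0.27 (Cd68) to 1.68 (Mrc1). The part of either marker list in these differences was not tested.

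Genes next to these pathways were taken from lists by role, and their counts are to be read against the 22.1% of all genes called with ACM and the 52.4% called with S1P in WT cells. Of 8 PPAR targets for fatty acid uptake, binding and storage, 4 rose and 2 fell under each treatment in WT cells. Plin2, the coat protein of lipid droplets, was at 161, 164, 166 and 167 in WT untreated, 409, 398, 401 and 399 in WT ACM and 550, 606, 664 and 661 in WT S1P libraries, with no overlap. In KO libraries it was at 149, 153 and 151 untreated, 140 to 155 with ACM and 141 to 153 with S1P, and 257 in the library labelled KO untreated 81. Hilpda, an inhibitor of droplet lipolysis, rose by 0.90 ± 0.09 and 1.18 ± 0.09, and Cd36, the scavenger receptor that takes up fatty acids, by 0.48 ± 0.11 and 0.61 ± 0.11. The binding protein Fabp5 fell by 0.27 (SE 0.04) and 0.35 (SE 0.04). With ACM and S1P in KO cells 0 of these 8 were called by limma.

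Nuclear receptor partners and coregulators split evenly: of 8 kept of 9 listed, 1 rose and 1 fell with ACM and 2 rose and 2 fell with S1P (25% and 50% called, near all genes). Rxra, the DNA partner of the PPARs, fell by 0.35 (SE 0.07) with ACM and 0.31 (SE 0.07) with S1P, and Rxrb differed by 0.21 ± 0.05 with S1P. Esrra, an estrogen-related receptor of mitochondrial genes, rose by 0.20 ± 0.04 and 0.20 ± 0.04. In the peroxisome list, 2 rose and 1 fell with ACM and 4 rose and 3 fell with S1P, of 12 kept of 13 (25% and 58.3% called, near all genes). Pex11a, which divides peroxisomes and is a PPAR target, had the largest rise there (0.63 ± 0.08 with S1P, limma adjusted p = 1.46e-06), while Crot, the peroxisomal carnitine acyltransferase, was at -0.30 ± 0.05 and Scp2 at -0.21 ± 0.05.

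Further down the route of the carbon, the shares called with S1P were 61.5%, 52.9% and 77.8% in lists of 13, 17 and 9 kept genes, beside 52.4% of all genes. Of 13 further mitochondrial acyl-CoA enzymes kept of 16, 1 rose and 4 fell with ACM and 3 rose and 5 fell with S1P. Acat1, the acetoacetyl-CoA thiolase of ketone body use, was at 20.6, 20.1, 20.5 and 21.1 in WT untreated and 15.1, 13.4, 11.8 and 11.6 in WT S1P libraries, with no overlap (-0.63 ± 0.05, limma adjusted p = 4.73e-09). Methylmalonyl-CoA mutase (Mut) differed by -0.27 ± 0.05 and Acadsb by -0.21 ± 0.04 with S1P. Of 17 citric acid cycle genes 5 rose and 4 fell with S1P (1 and 4 with ACM), among them fumarase (Fh1, -0.39 ± 0.04), Idh3a (-0.38 ± 0.05), Suclg2 (-0.29 ± 0.04) and Ogdh (0.16 ± 0.03). Of 9 genes of pyruvate dehydrogenase and its regulation, 4 rose and 3 fell with S1P (0 and 1 with ACM): Pdhb, a subunit of the complex, rose by 0.47 ± 0.07, the inhibitory kinases Pdk1 and Pdk3 were at -0.51 ± 0.06 and -0.52 ± 0.07, and the phosphatase Pdp2 was at -0.32 ± 0.06. In KO cells limma called 0 genes of these 5 lists with either treatment.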

How the data were processed

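RNA was extracted with Trizol and sequenced from oligo(dT) libraries, per the labels' protocols. The authors deposited 1 table of FPKM values for 24 libraries. Per the submitters' processing notes, the tools were StringTie, featureCounts, STAR, STAR-Fusion, HISAT2, DESeq and edgeR and the build GRCm38 (mm10); their roles, their versions and a strand setting are not stated. Of the gene identifiers, 37 matched no gene of the GRCm38 annotation.

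FPKM values are not counts. They were taken as log2(FPKM + 1), genes with 1 FPKM in 4 or more libraries were kept, and limma 3.58.1 (R 4.3.3) fitted the 6 group means with a mean-variance trend. The 11 comparisons were treatment within genotype, ACM against S1P, genotype within treatment, and the genotype by treatment terms. Calls used p-values adjusted by Benjamini-Hochberg over all genes tested, and the fit was tested on simulated data. Read depth was recovered from the steps between low FPKM values: 95.6% to 96.6% of values came out within 0.05 of a whole read. Groups were taken from the sample titles. The members and lists were chosen with earlier results of these data known. Every library's value is given for up to 2 members of each role with the largest called treatment difference and up to 6 with the smallest adjusted p in a genotype comparison; of the other lists, up to 4 genes with the smallest adjusted p for S1P in WT cells are named, except for some that are not reported here. Sequences were taken from RefSeq tables. Alternatives were the pseudocount, the filter, TPM, quantile and median scaling, a robust fit, a fit of only the groups compared and leaving out each library.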

Additional observations from a re-analysis of the deposited data

Results flagged for a closer look

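In 18 cases the response of a member differed between genotypes, tested as the KO treatment difference minus the WT one on the log2(FPKM + 1) scale by limma with adjusted p under 0.05. With ACM these were Cpt1a (-0.72), Slc25a20 (-0.83), Acot2 (-0.86), Pparg (-0.40), Ucp2 (-0.30), Acaa1a (-0.25), Acsl3 (0.42) and Echs1 (0.35). With S1P they were Acot2 (-2.34), Pparg (-1.05), Slc25a20 (-1.03), Cpt1a (-0.98), Acadvl (-0.33), Acsl1 (-0.25), Acsl3 (0.57), Acsl5 (0.55), Echs1 (0.33) and Etfa (0.22). The Pparg term with ACM and the Etfa term with S1P were each lost in 10 of 32 alternative analyses, and the ACM terms of Ucp2 (-0.19) and Acaa1a (-0.14) were lost with TPM scaling.

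In 8 of 180 groups of 4 libraries, 1 library stood apart by Dixon's criterion, which chance meets in about 1 in 20 groups. In WT untreated cells Acsl3 was at an FPKM of 16.6 in library 4 and Cpt2 at 8.74 in library 3. In WT ACM cells Acaa2 was at 28.5 in library 21 and Eci1 at 13.2 in library 19. In KO cells Hadhb was at 8.65 in the library labelled KO untreated 81 and at 9.31 in KO ACM 88, Acads at 15.8 in KO S1P 92 and Hadh at 10.1 in KO S1P 91.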

How the results depend on the processing

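Of 93 called differences of the members, 68 kept their call under all 32 alternatives and 0 changed sign, and all 30 of at least 0.5 on the log2 scale kept it. TPM scaling lost 16 calls, no filter 9, median scaling 6, a fit of only the groups compared 6, quantile normalization 4, a pseudocount of 0.1 lost 1, and a filter at FPKM 5 and the robust fit lost 0. Leaving out 1 library at a time gave 8 to 12 called members for ACM and 16 to 19 for S1P in WT cells, and 0 for either in KO cells. For untreated KO against WT cells it gave 0 to 3, the 3 without the library labelled KO untreated 81. Called members higher in KO cells with S1P went from 5 to 3 without WT S1P 26 or without WT S1P 28. The cause was not tested. Without the filter Angptl4 was called with S1P in WT cells (0.52, limma adjusted p = 7.07e-05). No paired analysis was possible because no library number is shared between groups. FPKM depends on the few most abundant genes, the largest of which took 4.38% to 18.6% of the summed FPKM.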
